A study of Rattus norvegicus with 6 samples.

Results

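Of 36 genes listed for protein folding in the endoplasmic reticulum (ER) and for the unfolded protein response, 34 had a row among the 17055 gene rows of 6 rat islet libraries. The members were chosen by symbol for their place in the pathway, with earlier results of these data known. Those with a row were set apart by role, as 9 sensors and transcription factors, 11 chaperones and cochaperones and 6 genes of disulphide formation. The rest were 5 genes of ER-associated degradation and 3 of translocation into the ER. Edem1 and Derl2 were not analysed here. All 34 passed the filter on low counts and were among the 10124 genes tested in all. The P10 group held 3 libraries of islets of Langerhans from 10-day-old Sprague-Dawley rats (1.5 weeks, sex not given), and the adult group 3 libraries from 3-month-old males (12 weeks) of the same strain, all labelled as controls and as biological replicates. Because the adults are labelled male and the sex of the pups is not labelled, age and sex cannot be told apart. The labels do not say whether a replicate pools several animals, and the p-values speak of the variation among these 6 libraries, which may in part be technical. The comparison bears on the maturation of beta cells after birth, which the title of the series names.

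The unfolded protein response is started by the ER membrane proteins IRE1, PERK and ATF6, which respond when unfolded proteins accumulate in the ER lumen. IRE1 splices the mRNA of Xbp1, PERK phosphorylates the initiation factor eIF2 alpha and so favours translation of Atf4, and ATF6 is cut in the Golgi to release a transcription factor. Together they raise chaperones, disulphide enzymes and degradation factors, and in prolonged stress the pro-apoptotic factor CHOP. Beta cells are known to depend on this system because proinsulin folds in the ER in very large amounts. Gene counts do not show splicing of Xbp1, phosphorylation or cleavage, so activity of the 3 sensors was not measured.

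Gene counts ran from 3307415 to 6477825 per library. Insulin genes (Ins1 and Ins2) took from 28.4% to 33.6% of them at P10 and from 46.7% to 52.3% in adults. Summed over marker lists, all 7 duct markers with a row together stood at 2792 to 3107 normalised CPM (counts scaled to a common depth of 1e6 with factors between libraries) at P10 and 963 to 1300 in adults, with 6 of 6 tested lower. The 10 fibroblast markers with a row stood at 3128 to 3949.9 and 669 to 934 CPM (7 of 9 tested lower, Col1a2 at 0 in every library), and the 6 beta-cell markers at 227620 to 296890 and 538380 to 671500 CPM (6 of 6 higher). The 17 acinar markers overlapped, at 3665 to 5499.7 CPM at P10 and 1507 to 5878 in adults (4 of 15 tested higher, 6 lower, Prss2 at 0), as did the 8 endothelial markers, at 130 to 203 and 88.7 to 136 CPM (2 of 8 lower), and the 9 macrophage markers, at 68.1 to 124 and 61.9 to 102 CPM (1 of 7 tested lower). The 5 hormone genes of the other endocrine cells stood at 28940 to 31729 and 19764 to 24041 CPM (1 higher, 3 lower). The 5 B-cell and plasma-cell markers summed to at most 13.4 CPM at P10 and 1.10 CPM in adults, and none was tested. The part of these shifts in the results below was not tested.

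Short DNA elements are known to carry this response, and some are shown so that members with and without a call can be read against them. The ER stress response element (ERSE) is CCAAT followed after 9 bases by CCACG and is bound by the factor NF-Y and by ATF6 or XBP1. ERSE-II, first described in Herpud1, is ATTGG followed after 1 base by CCACG, and the CARE element bound by ATF4 and C/EBP factors is TGATG followed after 1 base by AA. RefSeq windows of the GRCr8 build, from 250 bases before to 50 after each gene's start, were found for 26 of the 34 members (27 windows, since Hyou1 has 2), Ero1lb through its present name Ero1b. They were searched on both strands, and a match is a description of letters and not a binding site. In the lines below the element is in capitals, in its own 5′ to 3′ sense, and the strand is the one printed.
Xbp1, ERSE, chr14:84604543-84604591, plus strand: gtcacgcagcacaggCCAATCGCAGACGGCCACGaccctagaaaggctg
Ero1lb, ERSE, chr17:92941443-92941491, minus strand: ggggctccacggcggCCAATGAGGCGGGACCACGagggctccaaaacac
Hspa5, ERSE, chr3:38452958-38453006, plus strand: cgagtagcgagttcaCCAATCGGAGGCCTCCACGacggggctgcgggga
Dnajc3, ERSE, chr15:102432519-102432567, plus strand: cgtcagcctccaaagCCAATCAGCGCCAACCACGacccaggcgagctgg
Calr, ERSE, chr19:40213120-40213168, minus strand: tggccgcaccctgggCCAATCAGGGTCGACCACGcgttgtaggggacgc
Creld2, ERSE, chr7:121789224-121789272, minus strand: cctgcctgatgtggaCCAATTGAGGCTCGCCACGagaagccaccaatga
Hyou1, ERSE-II, chr8:53602779-53602819, minus strand: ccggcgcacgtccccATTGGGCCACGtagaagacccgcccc
Herpud1, ERSE-II, chr19:10614806-10614846, minus strand: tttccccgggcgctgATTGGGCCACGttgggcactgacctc
Trib3, CARE, chr3:161275532-161275569, plus strand: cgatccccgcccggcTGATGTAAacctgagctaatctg

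An exact ERSE was present in 9 of the 27 member windows (33.3%), those of Xbp1, Ero1lb, Hspa5, Hsp90b1, Dnajc3, Calr, Canx, Creld2 and Derl3, against 22 of all 33469 windows (0.0657%). The element was originally defined on genes of this kind, so the difference is no independent result. In Hspa5 it lay from 43 to 25 bases before the start, in Xbp1 from 65 to 47 bases, and in Ero1lb from 224 to 206 bases. ERSE-II was present in 3 member windows (11.1%), of Hyou1, Dnajb11 and Herpud1, against 0.0508% of all windows, and CARE in 2 (7.41%), of Trib3 and Herpud1, against 3.98%. The unfolded protein response element TGACGTGG was present in 1, of Hyou1 (3.70%), where it overlaps an ERSE-II, against 0.595%. The bare CCACG, which lies within ERSE and ERSE-II and, read on the other strand, within TGACGTGG, was present in 22 windows (81.5%) against 31.6%. Of the 26 members with a window, 14 were called higher in the comparison below, where 12.5% of all tested genes were. Of the 9 with an exact ERSE, 2 (Xbp1 and Ero1lb) were called higher. Hspa5, Hsp90b1, Dnajc3, Calr, Canx and Creld2 among these 9 are chaperones or cochaperones, so element and role overlap. Whether the share called higher among the 9 differs from that of other members was not tested.

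Adult islets had higher mRNA levels of 19 of the 34 members, and lower levels of none, than P10 islets. Of the 9 sensors and regulators 8 were higher, among them all 3 sensor genes, and of the 11 chaperones and cochaperones 2 were. Of the other roles, 3 of 6 disulphide genes, 4 of 5 degradation genes and 2 of 3 translocation genes rose. A call is an adjusted p (FDR, false discovery rate) below 0.05 from the quasi-likelihood test of edgeR, and of all genes tested 12.5% were called higher and 13.8% lower. The median log2 fold change of adult over P10 was 0.44 over the 34 members and -0.03 over all 10124 genes tested. In 21 members every adult library was above every P10 library and in none below, where 20.0% of all tested genes lay above and 22.3% below. No member passed as lower at this threshold, and the negative changes reached at most -0.19 on the log2 scale, in Pdia4. In whole islets fewer cells of a type and less RNA per cell cannot be told apart. The direction depends on how libraries are scaled. With library totals alone, without TMM (trimmed mean of M values) composition factors, 4 members were higher and 5 lower. Of all 10124 genes tested 343 were then higher and 3612 lower, and their median moved to -0.52. Relative to that median the members stood 0.46 higher with library totals alone and 0.47 higher with TMM factors. A change of scaling moves all genes by nearly the same amount, so this closeness was fixed in advance and is no further evidence.

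**Figure D1:**
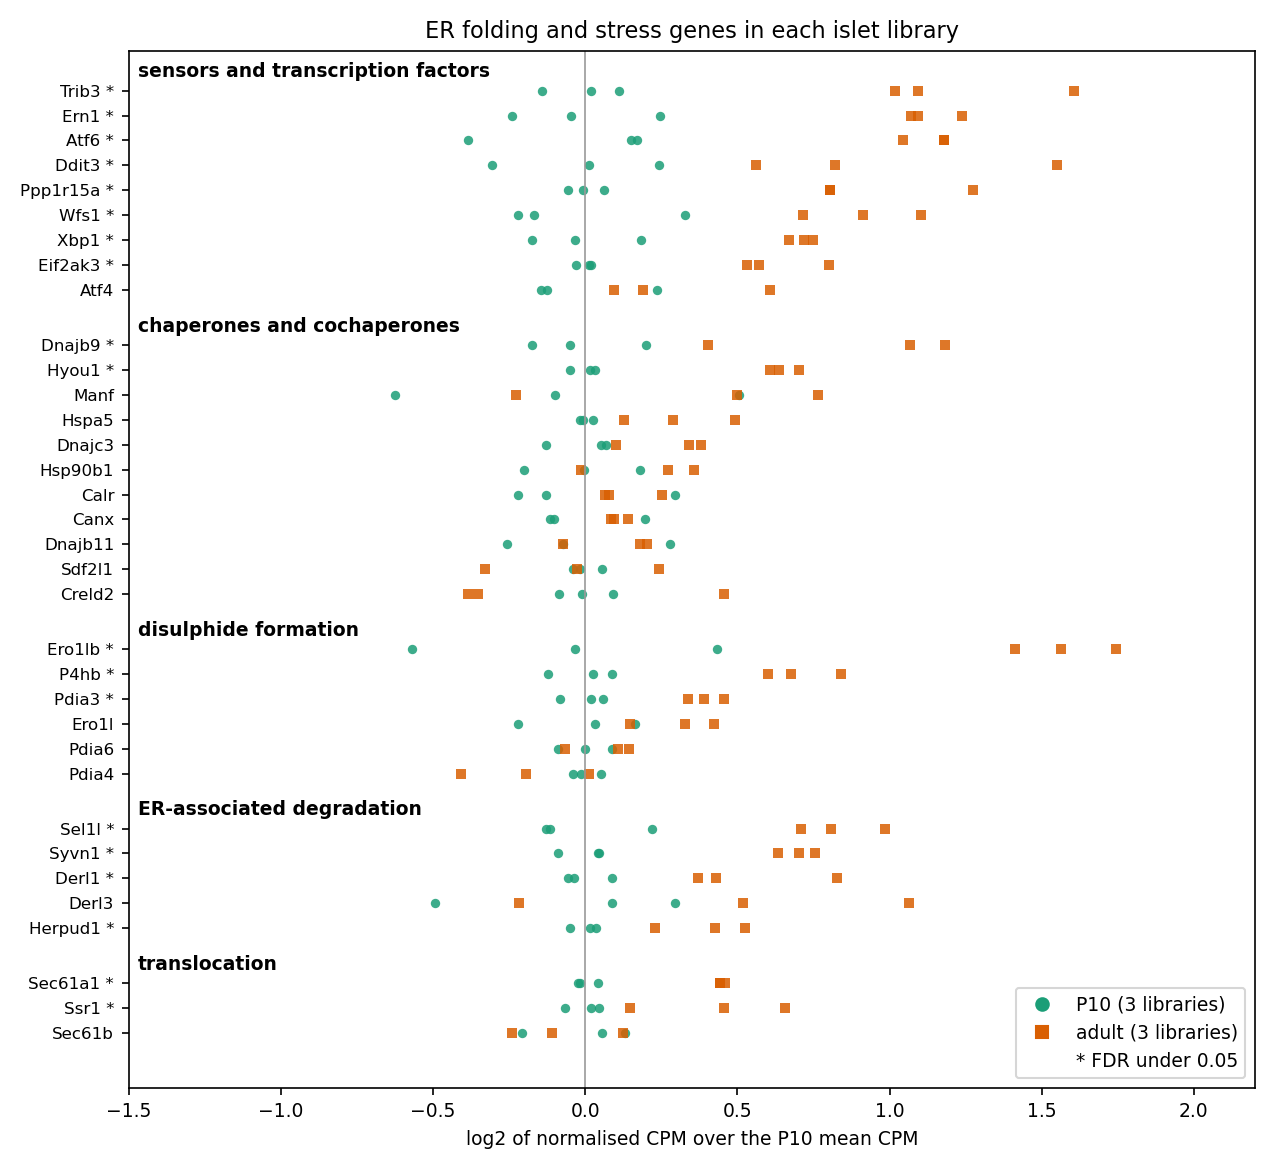
Normalised CPM of each member in each library, as log2 over the gene's mean in the 3 P10 libraries, by role; circles are P10 libraries, squares adult libraries, and a star marks an FDR under 0.05. All adult squares lie to the right of the P10 circles in 8 of 9 sensors and regulators and in 4 of 11 chaperones and cochaperones. Of all tested genes 20.0% had every adult library above every P10 library.

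Each of the 3 genes of the ER stress sensors rose. Atf6, whose protein is both sensor and transcription factor, had 30.7, 45.0 and 44.4 normalised CPM at P10 (replicates 1, 3 and 4, the order used throughout) and 90.6, 82.5 and 90.7 CPM in adults (replicates 1, 2 and 3). All adult values were well above the P10 values, and the gene rose 2.21-fold (log2 fold change 1.14 ± 0.18 SE, edgeR FDR = 0.000194). Ern1, the kinase and endonuclease IRE1 alpha, went from 23.6, 20.7 and 28.9 CPM to 51.2, 52.0 and 57.5 CPM, again without overlap, and rose 2.21-fold (1.15 ± 0.19 SE, edgeR FDR = 0.000407). Eif2ak3, the kinase PERK, which is mutated in the neonatal diabetes of Wolcott-Rallison syndrome, had 32.0, 33.1 and 33.0 CPM at P10 and 57.1, 47.3 and 48.7 CPM in adults. The groups did not overlap and the change was smaller, at 1.56-fold (0.64 ± 0.18 SE, edgeR FDR = 0.0137). Its call was lost without adult replicate 1, the highest library (FDR = 0.0722, where the alternatives spanned 0.00939 to 0.583). Atf6 and Ern1 stayed past the threshold with library totals alone (log2 fold changes 0.64 and 0.66), whereas Eif2ak3 did not (0.15). Atf6b, the related sensor gene on the wider list, rose 1.53-fold. Atf6 counts per Atf6b count, a ratio free of library scaling, were 0.197, 0.298 and 0.330 at P10 and 0.386, 0.381 and 0.408 in adults. The ratio was higher in each adult library, 1.46-fold on average, with an exact two-sided permutation p of 0.1, the smallest that 3 against 3 libraries allow.

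Downstream of the sensors, Xbp1, the transcription factor whose mRNA IRE1 splices, had 111, 86.8 and 95.6 CPM at P10 and 165, 156 and 161 CPM in adults. It rose 1.64-fold without overlap (0.71 ± 0.14 SE, edgeR FDR = 0.00111). The counts do not separate its spliced and unspliced forms. Atf4, the factor translated under PERK signalling and controlled mostly at translation, had 128, 99.9 and 98.6 CPM at P10 and 116, 124 and 166 CPM in adults. The groups overlapped and it did not pass (log2 fold change 0.32 ± 0.16 SE, edgeR FDR = 0.165), except without P10 replicate 1, the highest of its group (FDR = 0.0466, over a range up to 1.00). Ddit3, which encodes CHOP, had 29.0, 42.5 and 36.2 CPM at P10 and 52.9, 63.4 and 105 CPM in adults, and rose 2.08-fold (edgeR FDR = 0.00355). Adult replicate 3 stood well above the other 2 adult libraries. In the RefSeq table Ddit3 shares its place with Mars1, so without strand some reads may belong to its neighbour. Coding neighbours likewise share the spans of Atf6, Creld2, Pdia3, Ero1l, Syvn1, Herpud1 and Derl3.

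The feedback genes of this arm moved the same way. Ppp1r15a, the GADD34 subunit that directs dephosphorylation of eIF2 alpha, had 43.4, 47.1 and 44.9 CPM at P10 and 78.8, 78.8 and 109 CPM in adults, a rise of 1.98-fold (edgeR FDR = 0.000483). Trib3, a pseudokinase induced by ATF4 and CHOP, had 6.65, 6.24 and 5.58 CPM at P10 and 13.1, 12.5 and 18.7 CPM in adults. It rose 2.41-fold (1.27 ± 0.36 SE, edgeR FDR = 0.0158) and lost its call without adult replicate 3 (FDR = 0.0862, over a range of 0.00773 to 0.137). The Trib3 window held the CARE match shown above, as did 3.98% of all windows, and its part in the rise was not tested. Both genes were higher in every adult library than in any P10 library, and highest in adult replicate 3. Wfs1, the ER membrane protein wolframin, whose loss causes Wolfram syndrome with diabetes, went from 49.4, 72.2 and 51.2 CPM to 124, 109 and 94.6 CPM. The groups did not overlap, and it rose 1.88-fold (0.91 ± 0.17 SE, edgeR FDR = 0.00117). With library totals alone 3 of these 9 sensors and regulators were higher, namely Atf6, Ern1 and Ppp1r15a, and none lower. In that setting 343 of all 10124 genes tested were higher and 3612 lower.

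**Figure D2:**
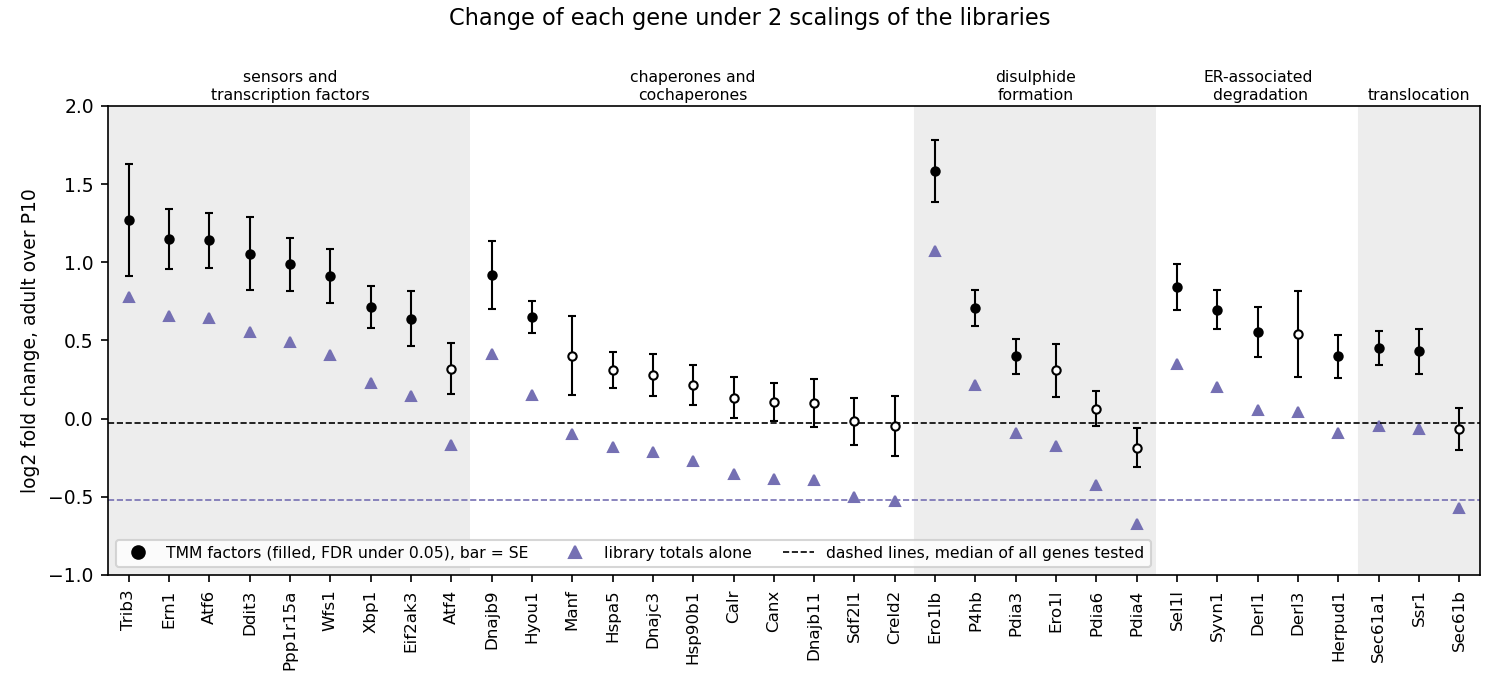
Log2 fold change of each member, adult over P10, with TMM factors (circles, bars are SE, filled where the FDR is under 0.05) and with library totals alone (triangles); dashed lines are the medians of all genes tested, -0.03 and -0.52. With TMM factors 9 of the 11 chaperones and cochaperones lie above 0, led by Dnajb9 and Hyou1, and with library totals alone 9 of the 11 lie below 0.

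Of the 11 chaperones and cochaperones Hyou1 and Dnajb9 passed the threshold, a share not read as a result beside the 12.5% of all tested genes called higher. The 6 with an exact ERSE (Hspa5, Hsp90b1, Dnajc3, Calr, Canx and Creld2) did not pass. Neither did Dnajb11 and Sdf2l1, whose windows held no exact ERSE. Hspa5, the ER Hsp70 chaperone BiP, had 1470.0, 1504 and 1461 CPM at P10 and 2082, 1615 and 1806 CPM in adults. All adult libraries were higher, yet the 1.24-fold difference just missed the threshold (log2 fold change 0.31 ± 0.11 SE, edgeR FDR = 0.0555). It passed in DESeq2 (0.0126), without the filter (0.0378) and without adult replicate 2 (0.0230), while with library totals alone its sign turned (-0.18), over an FDR range of 0.0126 to 1.00. Hyou1, the large Hsp110-like chaperone GRP170 with 2 ERSE-II elements in its first window, went from 916, 866 and 905 CPM to 1365, 1457 and 1391 CPM. That is 1.57-fold without overlap (0.65 ± 0.10 SE, edgeR FDR = 0.000274). Dnajb9, the cochaperone ERdj4, which restrains IRE1 and aids degradation, went from 26.2, 28.5 and 34.0 CPM to 61.9, 67.1 and 39.1 CPM. It rose 1.89-fold (0.92 ± 0.22 SE, edgeR FDR = 0.00560), with adult replicate 3 closest to the P10 values.

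The other 8 chaperones and cochaperones did not pass. Hsp90b1, the ER Hsp90 GRP94, averaged 1079.8 ± 143 CPM at P10 and 1252 ± 163 in adults (SD, n = 3), Calr, the lectin chaperone calreticulin, 1367 ± 272 and 1500.1 ± 112, and Canx, its membrane partner calnexin, 416 ± 53.0 and 448 ± 9.27. The groups overlapped in all 3, with log2 fold changes of 0.21 ± 0.13, 0.13 ± 0.13 and 0.10 ± 0.12 (SE). Dnajc3, the cochaperone p58IPK, was higher in each adult library, at 111 to 127 CPM against 130 to 157 CPM, but did not pass (0.28 ± 0.13 SE, edgeR FDR = 0.139). Dnajb11, the cochaperone ERdj3, averaged 129 ± 25.1 and 139.6 ± 14.3 CPM (SD, n = 3). Sdf2l1, a partner of ERdj3, and Creld2, a secreted ER stress protein, had the smallest changes (-0.02 ± 0.15 and -0.05 ± 0.19 SE). Manf, a secreted neurotrophic factor of the ER, varied widely in both groups, at 85.2 to 186 CPM at P10 and 112 to 223 CPM in adults (0.40 ± 0.25 SE). The signs of Sdf2l1, Creld2 and Dnajb11 turned in some alternatives. With library totals alone no chaperone was higher and 2 of 11, Canx and Sdf2l1, were lower. Of all 10124 genes tested 343 were higher and 3612 lower in that setting.

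Among the disulphide enzymes an ER oxidase gene had the largest change of all 34 members. Ero1lb, which reoxidises protein disulphide isomerases and is known as the ER oxidase enriched in pancreatic islets in mice, had 48.0, 96.1 and 69.7 CPM at P10 and 190, 211 and 239 CPM in adults. It rose 3.00-fold (1.58 ± 0.20 SE, edgeR FDR = 3.04e-05), and its lowest adult library was above its highest P10 library. The call held in all 14 alternatives, with log2 fold changes from 1.07 to 1.88. Ero1l, the widely expressed paralogue, had 57.5, 44.0 and 52.4 CPM at P10 and 64.3, 56.8 and 68.9 CPM in adults. The groups overlapped and it did not pass (0.31 ± 0.17 SE, edgeR FDR = 0.198). Ero1lb counts per Ero1l count were 0.835, 2.19 and 1.33 at P10 and 2.95, 3.71 and 3.47 in adults, so the ratio within a library was higher in all 3 adult libraries. It differed 2.50-fold (exact two-sided permutation p = 0.1, the smallest possible). In the same libraries the 6 beta-cell markers were higher, with a median log2 fold change of 1.13, and their part in the rise of Ero1lb was not tested.

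**Figure D3:**
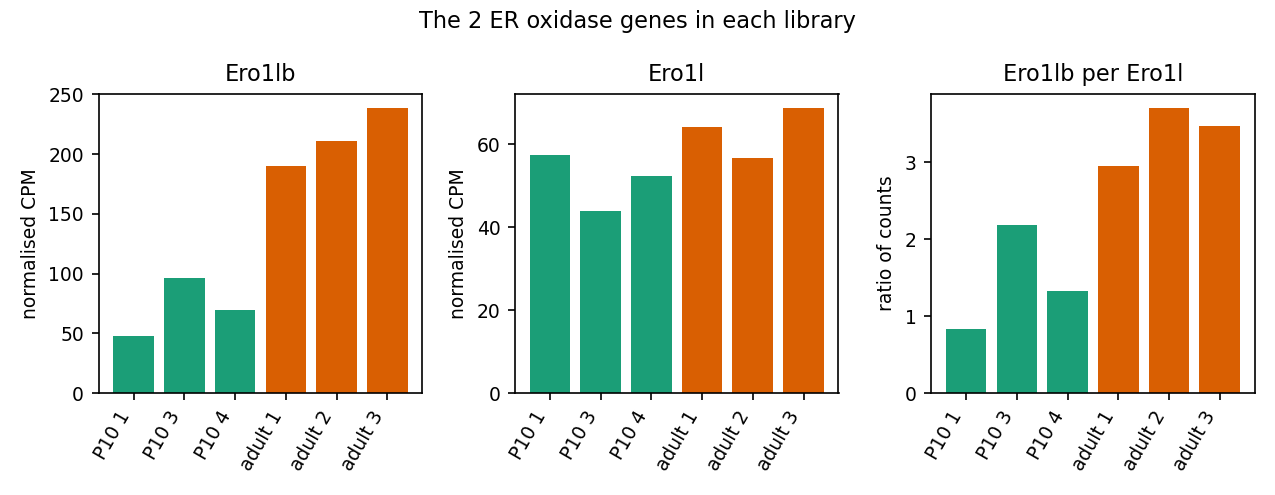
Normalised CPM of Ero1lb and Ero1l, and the ratio of their counts, in each library; bars start at 0, and the 3 P10 libraries are on the left of each panel and the 3 adult libraries on the right. The ratio was at most 2.19 at P10 and at least 2.95 in adults.

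Protein disulphide isomerases, which form and rearrange disulphide bonds, were divided. P4hb, the founding isomerase PDI, had 691, 722 and 624 CPM at P10 and 1216, 1029.9 and 1085 CPM in adults, and rose 1.64-fold without overlap (0.71 ± 0.11 SE, edgeR FDR = 0.000284). Pdia3, the isomerase ERp57 that works with calnexin and calreticulin, had 433, 403 and 445 CPM against 560.2, 539.9 and 586 CPM. It rose 1.32-fold without overlap (0.40 ± 0.11 SE, edgeR FDR = 0.0147), a call lost without P10 replicate 3 (FDR = 0.0682, over a range of 0.000511 to 1.00). Pdia6, the isomerase P5, averaged 1017 ± 62.7 and 1063 ± 81.5 CPM (SD, n = 3), and Pdia4, the isomerase ERp72, 494 ± 16.3 and 434 ± 63.4 CPM. Neither passed, with log2 fold changes of 0.06 ± 0.11 and -0.19 ± 0.12 (SE). Both were lower with library totals alone (-0.43 and -0.68), where Ero1lb was the 1 disulphide gene still higher.

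Genes that withdraw misfolded proteins from the ER rose in 4 of 5 cases. Sel1l, the adaptor of the HRD1 ubiquitin ligase, had 76.5, 77.3 and 97.3 CPM at P10 and 166, 147 and 137 CPM in adults, and rose 1.79-fold (0.84 ± 0.15 SE, edgeR FDR = 0.000523). Syvn1, the ligase HRD1 itself, had 117, 117 and 107 CPM against 192, 185 and 176 CPM, and rose 1.62-fold (0.69 ± 0.12 SE, edgeR FDR = 0.000697). Both partners of the complex were higher in all adult libraries, with little spread within a group. Derl1, a membrane protein of the retrotranslocation channel, had 61.3, 60.5 and 66.8 CPM against 81.3, 111 and 84.6 CPM, and rose 1.47-fold (edgeR FDR = 0.0170). Herpud1, a ubiquitin-like ER stress protein, had 85.8, 87.1 and 82.0 CPM against 122, 99.7 and 114 CPM, and rose 1.32-fold (edgeR FDR = 0.0423). The Herpud1 window held an ERSE-II and a CARE match, the latter present in 3.98% of all windows, and their part in the rise was not tested. The groups did not overlap in either gene, but single libraries decided both calls. Derl1 lost its call without P10 replicate 3 or adult replicate 2 (FDR = 0.0570 and 0.107, over a range of 0.00801 to 0.825). Herpud1 lost it when replicate 3 or 4 of P10, or replicate 1 or 3 of the adults, was left out (FDR from 0.0839 to 0.162, over a range of 0.0312 to 1.00). Derl3, the derlin of secretory cells, had 27.3, 40.9 and 47.1 CPM at P10 and 80.2, 55.0 and 33.0 CPM in adults, and did not pass (0.54 ± 0.28 SE, edgeR FDR = 0.167), except without adult replicate 3 (FDR = 0.0259, over a range up to 0.922). With library totals alone no degradation gene passed in either direction, where 343 of all 10124 genes tested were higher and 3612 lower.

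At the ER membrane, Sec61a1, the pore subunit of the translocon, had 362, 363 and 378 CPM at P10 and 500.4, 499.9 and 505 CPM in adults. The highest adult value was 1.01-fold the lowest, and the gene rose 1.36-fold (0.45 ± 0.11 SE, edgeR FDR = 0.00630). Ssr1, the TRAP complex subunit that assists translocation of some precursors, preproinsulin among them, had 110.5, 104 and 113 CPM against 149.7, 172 and 121 CPM. It rose 1.35-fold (0.43 ± 0.15 SE, edgeR FDR = 0.0390), a call lost when replicate 3 or 4 of P10, or replicate 1 or 2 of the adults, was left out (FDR from 0.0745 to 0.187, over a range of 0.0129 to 1.00). Sec61b, a small translocon subunit, averaged 251 ± 30.0 and 239.9 ± 31.3 CPM (SD, n = 3), with full overlap (-0.07 ± 0.14 SE). With library totals alone Sec61b was lower (-0.57) and the signs of Sec61a1 and Ssr1 turned (-0.05 and -0.07).

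Ins1 and Ins2 rose 2.13-fold and 2.25-fold in normalised CPM, whereas the median log2 fold change of all tested genes was -0.03. A gene of unchanged CPM therefore falls per insulin count, and the share of all tested genes that fell was not counted. Per insulin count, the summed counts of 4 of the 5 roles were lower in every adult library than in any P10 library. The mean was lower in adults for 31 of the 34 single members, a count not read as a result without the share of all tested genes. Ern1, Trib3 and Ero1lb were the other 3, and Ero1lb stood at 1.63, 4.27 and 2.51 counts per 10000 insulin counts at P10 and 3.56, 3.16 and 4.39 in adults, which overlapped. Chaperone and cochaperone counts per 100 insulin counts were 2.16, 2.52 and 1.99 at P10 and 1.46, 1.01 and 1.29 in adults. The groups did not overlap, and the mean was 1.78-fold lower in adults (2.23 ± 0.274 against 1.25 ± 0.229, SD, n = 3). Disulphide genes gave 1.04 ± 0.169 and 0.602 ± 0.110, translocation genes 0.278 ± 0.0448 and 0.154 ± 0.0106, and degradation genes 0.146 ± 0.0226 and 0.103 ± 0.0156 counts per 100 insulin counts (SD, n = 3), all without overlap. Sensors and regulators overlapped, at 0.154 to 0.201 and 0.109 to 0.157. As a share of all gene counts, all 34 members together took 1.22%, 1.26% and 1.13% at P10 and 1.19%, 0.953% and 1.11% in adults, which overlapped. In normalised CPM the sums were higher in adults, by 1.73-fold for sensors and regulators and 1.22-fold for chaperones and cochaperones. Sums over members carry no test here. Ins1 and Ins2 are closely similar and alignments that were not unique stayed out of gene counts, so insulin counts may be incomplete. Such alignments made up 23.4% to 27.7% of gene counts and counters together at P10 and 15.1% to 17.8% in adults, and their part in these ratios was not tested.

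**Figure D4:**
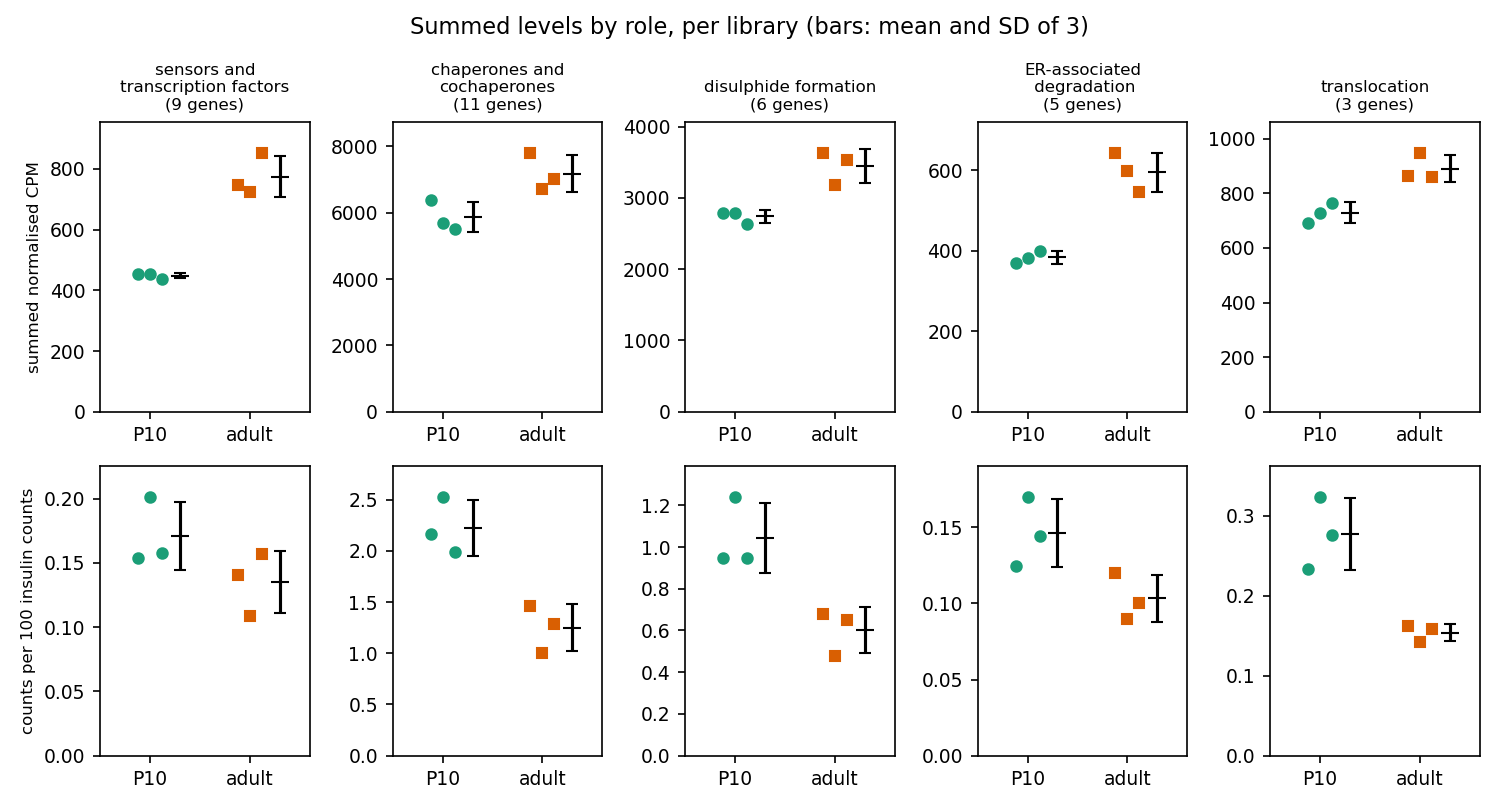
Summed levels of the members by role in each library, in normalised CPM (top) and as counts per 100 insulin counts (bottom); circles are P10 libraries, squares adult libraries, and bars give the mean and SD of 3. The top row is higher in adults and the bottom row lower in adults, with overlap in the bottom row in the sensors and regulators alone. Insulin genes rose in normalised CPM, so a gene of unchanged CPM falls in the bottom row.

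Several members differed among the adult libraries. Ranked by highest over lowest adult CPM, the first 8 members were Derl3 (2.43-fold), Manf (1.99-fold), Ddit3 (1.99-fold), Creld2 (1.79-fold), Dnajb9 (1.72-fold), Trib3 (1.50-fold), Sdf2l1 (1.49-fold) and Atf4 (1.43-fold), chosen after their values were seen. Adult replicate 3 was the highest adult library in Ddit3, Trib3 and Atf4, and the lowest in Derl3, Manf and Dnajb9. The same library had the highest sum of acinar markers, at 5878 CPM against 1507 and 1643 CPM in the other 2 adult libraries, and the highest depth of the 3. Its part in these differences was not tested. Without this library 18 members were higher and none lower, and the FDR of Ddit3 did not rise above 0.0318 when any single library was left out.

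**Figure D5:**
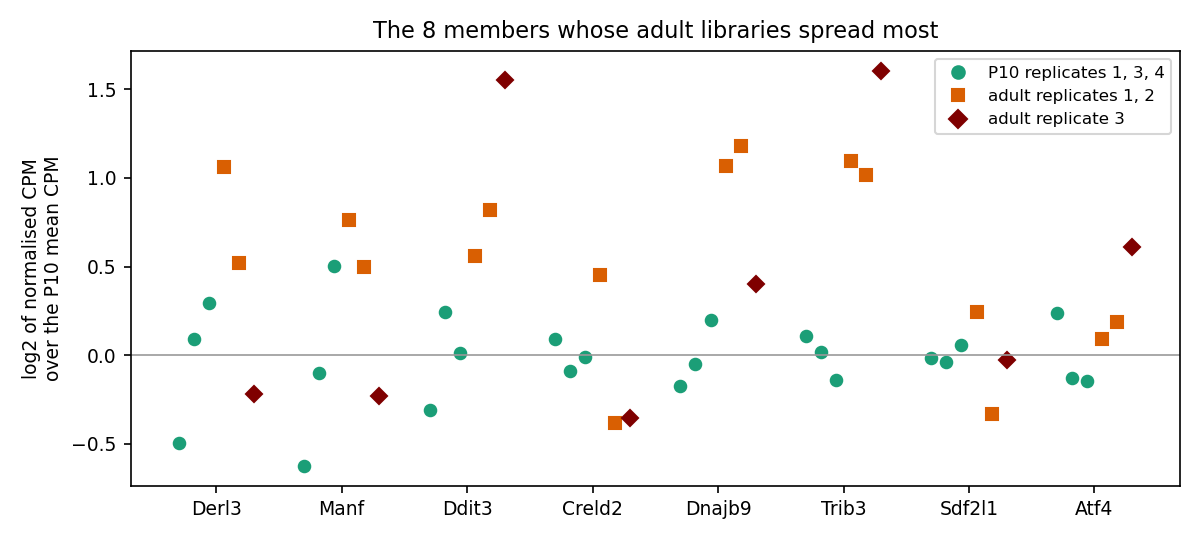
Normalised CPM, as log2 over the P10 mean, of the 8 members with the widest spread between adult libraries; circles are P10 libraries, squares adult replicates 1 and 2, and diamonds adult replicate 3. The diamonds are the highest adult points for Ddit3, Trib3 and Atf4 and the lowest for Derl3, Manf and Dnajb9.

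Beyond the members, 41 of 126 tested genes on wider lists of the same pathway were higher in adults and 8 lower, with a median log2 fold change of 0.31, where all tested genes had 12.5% higher, 13.8% lower and a median of -0.03. These lists, too, were chosen with earlier results of these data known. On them 7 were higher and 33 lower with library totals alone, against 343 and 3612 of all 10124 genes tested. The N-glycan transfer and lectin cycle list had 7 of 16 higher and 1 lower. Rpn2, an oligosaccharyltransferase subunit, rose 1.76-fold from 429 ± 55.5 to 753 ± 49.5 CPM (SD, n = 3; edgeR FDR = 0.000160), and Uggt1, the glucosyltransferase that senses misfolded glycoproteins, 1.69-fold (edgeR FDR = 0.000734). Tusc3, another transferase subunit, fell 1.51-fold (edgeR FDR = 0.0137), a call lost without adult replicate 1 or 3 (FDR = 0.0583 and 0.0507, where the alternatives spanned 0.000129 to 0.687). With library totals alone none of this list was higher and 2 were lower. The translocon and signal peptidase list had 5 of 20 higher and none lower, led by Srpr, the signal recognition particle receptor (1.88-fold, edgeR FDR = 4.09e-05), and Spcs2, a signal peptidase subunit (1.43-fold, edgeR FDR = 0.00801). It was 1 higher and 8 lower with library totals alone.

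The wider degradation list had 8 of 22 higher and none lower, or 2 higher and 3 lower with library totals alone. Edem2, a mannosidase that marks glycoproteins for degradation, rose 2.38-fold from 48.1 ± 4.39 to 114 ± 7.23 CPM (SD, n = 3; edgeR FDR = 1.58e-05). Sec16a, a scaffold of ER exit sites placed on this list, rose 2.23-fold (edgeR FDR = 5.80e-06). In COPII export 6 of 14 rose and 2 fell, with Sec23b, a coat subunit, 1.96-fold (edgeR FDR = 3.78e-05) and Surf4, a cargo receptor, 1.58-fold higher (edgeR FDR = 0.000553). Kdelr3, a KDEL receptor, fell 3.51-fold from 17.3 ± 6.02 to 4.75 ± 1.77 CPM (SD, n = 3; edgeR FDR = 0.00317). The export list had 1 higher and 4 lower with library totals alone, against 343 and 3612 of all 10124 genes tested.

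Of the further disulphide enzymes and cochaperones 4 of 21 rose and 3 fell, counts near the shares of all tested genes, and of the stress transducers and regulators 5 of 16 rose and none fell. Tmx2 and Txndc11, thioredoxin-related ER membrane proteins, rose 2.05-fold and 1.64-fold (edgeR FDR = 0.00166 and 0.00327). Gpx8, an ER peroxidase, fell 16.6-fold from 17.9 ± 2.80 to 0.978 ± 0.847 CPM (SD, n = 3; edgeR FDR = 6.88e-05). The adult counts of Gpx8 were 0, 4 and 8, so the size of its fold rests on very few reads. Fibroblast markers fell in the same libraries, with a median log2 fold change of -2.37, and their part in the fall of Gpx8 was not tested. Creb3l2, an ER-bound factor processed like ATF6, rose 1.82-fold (edgeR FDR = 0.00144). Among targets of ATF4 and CHOP 6 of 17 rose and 2 fell. Slc7a5 and Slc3a2, the 2 chains of an amino acid exchanger, rose 1.95-fold and 1.76-fold (edgeR FDR = 6.62e-05 and 0.000147), whereas Eif4ebp1, a repressor of translation initiation, fell 2.07-fold (edgeR FDR = 0.000734). With library totals alone the 3 lists had 1 higher and 9 lower, none higher and 3 lower, and 2 higher and 4 lower. Of all 10124 genes tested 343 were then higher and 3612 lower.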

How the data were processed

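Islet RNA was selected for poly(A) and made into single-end libraries without strand information, per the labels' protocols. The submitters' processing notes name rn5 as the genome build, with Bowtie2, TopHat2 2.0.10, HTSeq, DESeq and edgeR, and give no role for the last 2. The authors deposited raw counts of reads per gene symbol, 1 list per library. Their joint table repeats these counts and was left aside. Rows of the read counter that name no gene (5 per list) entered neither library sizes nor tests. Of gene counts and counter rows together, 0.319% to 0.474% were ambiguous reads and 15.1% to 27.7% alignments that were not unique. By the RefSeq table of GRCr8, taken only for names, neighbours and promoter windows, 13 of the 34 members share their span with another gene, 8 of them with a coding one, and without strand the reads of such neighbours could not be told apart.

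From the deposited counts, edgeR 4.0.16 (R 4.3.3) kept 10124 genes by filterByExpr with a minimum count of 10 and a total of 15. A quasi-likelihood model with TMM scaling and age alone as its term used all 6 libraries. The FDR is the Benjamini-Hochberg value over all genes tested, and 0.05 is its threshold. The SE of a log2 fold change was taken as its size divided by the root of the F statistic, and each fold comes from the model. CPM carry the TMM scaling; 3 counts in 1 library equal 0.407 to 1.10 CPM, which covers counting error only. The script was checked on simulated counts with known changes, all genes given the same variation between libraries. It called 99 of 99 genes with a 4-fold change, 40 of 98 with a 2-fold change and 3 of 9771 with none. In the data the SE differed between members, as with 0.10 for Hyou1 and 0.36 for Trib3, so these rates are not those of the members. A gene that did not pass may still differ.

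The members and all gene lists were chosen with earlier results of these data known. Every member is named; from each wider list up to 3 genes are, namely the 2 of smallest p in the more common direction and the 1 of smallest p past the threshold in the opposite one. The wider lists held 138 genes, of which 132 had a row and 126 were tested. Alternatives comprised relative log expression (RLE) scaling, scaling by library totals alone, TMM scaling computed with hormone and acinar genes left out, DESeq2 1.42.0, omission of the filter, a stricter filter (at least 5 CPM in 3 libraries), a block for replicate number, a test for changes beyond 1.5-fold, and omission of each library. A planned description of protein sequences was not made.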

Additional observations from a re-analysis of the deposited data

How the results depend on the processing

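The 19 and 0 members higher and lower in adults became 4 and 5 with library totals alone, 11 and 0 with the replicate block and 4 and 0 against a 1.5-fold change; the 41 and 8 wider genes became 7 and 33, 20 and 5, and 6 and 6; all tested genes, 1265 and 1394, became 343 and 3612, 679 and 729, and 337 and 624. Leaving out 1 library at a time gave 15 to 20 members higher and none lower. RLE factors, TMM without hormone and acinar genes, DESeq2 and both filters gave 18 to 20. The calls of Atf6, Ern1, Ppp1r15a and Ero1lb held in all 14 alternatives. Of the 18 wider genes named, 8 lost their call with library totals alone. Ero1lb per insulin count changed by 0.13 to 0.84 on the log2 scale when single libraries were left out. Signs turned with library totals alone for Atf4 (-0.17), Hspa5 (-0.18), Hsp90b1 (-0.27), Dnajb11 (-0.39), Dnajc3 (-0.21), Calr (-0.35), Canx (-0.39), Manf (-0.096), Pdia3 (-0.094), Pdia6 (-0.43), Ero1l (-0.18), Herpud1 (-0.091), Sec61a1 (-0.046) and Ssr1 (-0.070), a setting that moves the median of all genes to -0.52. With the replicate block they turned for Dnajb11 (-0.037), Sdf2l1 (0.14) and Creld2 (0.048). Leaving out single libraries gave log2 fold changes across 0 for Dnajb11 (-0.0015 to 0.28), Sdf2l1 (-0.16 to 0.12), Creld2 (-0.36 to 0.10) and Sec61b (-0.17 to 0.016), with no call; the cause was not tested. The same-numbered libraries, replicates 1 and 3, did not deviate together (correlations of -0.024 and -0.005), so the numbers were not taken as pairs. The block fit leaves 1 residual degree of freedom, since numbers 2 and 4 occur once. The number of libraries limits the precision of small changes: the SE of the 11 chaperones and cochaperones ran from 0.10 to 0.25 on the log2 scale.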
